A study of Mus musculus with 6 samples.

Results

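The 33 genes described here encode proteins of the presynaptic terminal: synaptic vesicle proteins, the SNARE proteins that fuse vesicles with the plasma membrane, and the scaffolds of the active zone, the site of release. They were chosen by symbol from a list, and each had 1 row among the 35510 genes of the deposited table. The libraries hold RNA of cortical neurons from wild-type mice of the outbred stock Swiss (RjOrl:SWISS) at the day of birth, P0. In utero electroporation at E15.5 had introduced either a control plasmid (3 libraries) or one encoding a miR-17-5p sponge (3 libraries), a transcript whose binding sites draw this microRNA away from its natural targets. Each library came from 50 ng of total RNA, corresponding to roughly 100000 cells pooled from about 10 brains, so a library averages over animals. The column names mark the cells as sorted. The series concerns prenatal alcohol exposure, but no alcohol-exposed sample was analysed here, and neither was the level of miR-17-5p itself. Nothing in the labels says whether the libraries of a group came from separate litters, so the tests measure the spread between these libraries.

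At a presynaptic terminal, vesicles are filled with transmitter by vesicular transporters, tethered by synapsins and docked at the active zone. Vesicle VAMP proteins pair there with plasma membrane syntaxin and SNAP-25 in the SNARE complex. Munc13 proteins prime the vesicles, complexins act on the SNARE complex, and synaptotagmins couple calcium entry to fusion. Around birth, cortical neurons are still extending axons and have few mature synapses, but already transcribe many of these genes.

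A microRNA recognises its targets mainly through its seed, bases 2 to 8, and miR-17-5p is therefore shown with the letters its sponge and its targets pair with. The mature sequence (RefSeq, GRCm38.p6, chr14:115043684-115043706, plus strand) is given 5′ to 3′ with the seed in capitals.
mmu-miR-17-5p: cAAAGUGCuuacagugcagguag
The complement of the seed, GCACTTT, was searched on the transcribed strand of the longest annotated 3′ UTR of each gene (GENCODE M21, GRCm38; UTRs of at least 50 bases). It was found in 5 of the 33 members (15.2%), against 2144 of 15198 tested genes with such a UTR (14.1%). The match extended to 8 bases, with a following A, in 2 members (6.06%) and in 659 tested genes (4.34%). The share of members with a match was thus near that of all genes, although the median 3′ UTR of the members, 2375 bases, was longer than the 1167 bases of all tested genes. The 6 matches follow, each in its 3′ UTR, 5′ to 3′ on the transcribed strand with the 7-base match in capitals. Shorter or other kinds of match, other 3′ UTRs of the same genes and coding sequence were not searched.
Cplx1, minus strand, chr5:108519425-108519453: tcgtctgtaatGCACTTTccagagtccca
Slc17a7, plus strand, chr7:45175827-45175855, 8-base match: cccaaatccttGCACTTTattctcctggg
Sv2c, minus strand, chr13:95955222-95955250: agctatttcacGCACTTTcccaaatgtgg
Erc1, minus strand, chr6:119571069-119571097, 8-base match: agaggcatgttGCACTTTagtggggaacc
Rab3c, minus strand, chr13:110061200-110061228: atatatatattGCACTTTtgttaataata
Rab3c, minus strand, chr13:110057613-110057641: ggatgctccctGCACTTTcgttgtctgcc
A match is a stretch of letters and not evidence of binding. The same seed is carried by miR-20a-5p, miR-20b-5p, miR-93-5p, miR-106a-5p, miR-106b-5p and miR-6383 in the RefSeq set.

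Depth came to 115445910 to 138254412 counts per library if each column's smallest value is taken as 1 read, which could not be established for 2 of the columns. Control library 1 stood apart: its correlation with the other libraries across genes was 0.942 to 0.954, whereas the other pairs lay between 0.974 and 0.986. Erythroid markers summed to 32202 normalised counts in it, against 1392 to 4206 in the other libraries. Markers of cortical neurons (9 genes, among them Tubb3 and Neurod6, all measured in every library) summed to 600854 to 652158 normalised counts in the controls and 618329 to 631463 in the sponge libraries. Radial glia and progenitor markers summed to 172926 to 201975 and 172455 to 207453, and interneuron markers to 53349 to 76414 and 40709 to 78551, so the libraries did not hold excitatory neurons alone. Astrocyte markers summed to 179431 to 236954 in the controls and 216095 to 290871 in the sponge libraries, oligodendrocyte lineage markers to 87306 to 106898 and 113888 to 127433. Microglia markers summed to 1738 to 4223 and 1760 to 2273, and vascular markers to 9811 to 14603 and 9712 to 15037. No marker of these lists was at 0 in all libraries. The part of these other cells in the results below was not tested. In bulk RNA, fewer cells of a type and less RNA per cell cannot be told apart.

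The members spanned a wide range of levels at birth. Per kilobase of exon, the mean over the 6 libraries ran from 12.9 normalised counts for Sv2b to 14547 for Syt11, an 1131-fold range. The median member stood at 844.5, above the median of 395 over all tested genes, and 25 of the 33 lay above that median. Levels per kilobase depend on the exon length assigned to a gene. With the longest annotated transcript in place of all exons, the order of the members changed little (Spearman's rho 0.98 between the orders, 33 genes), and 9 of the 10 role groups kept the same highest member.

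In most families with several members, a paralog outweighed its relative in each library (levels per kilobase). Slc17a6, which encodes the vesicular glutamate transporter VGLUT2, stood 16.4 to 31.4 times above Slc17a7, which encodes VGLUT1, the form that dominates in the mature cortex. Vamp2, the main vesicle SNARE of forebrain synapses, stood 35.0 to 94.5 times above Vamp1, and Cplx2 1.87 to 3.12 times above Cplx1. None of these 3 pairs had overlapping levels among the 6 libraries. Of the SV2 glycoproteins, Sv2a was 4.77 to 13.2 times above Sv2c, and Sv2c 9.44 to 63.0 times above Sv2b. Sv2a and Syp, the abundant vesicle protein synaptophysin, overlapped in level, with a median ratio of 1.37, which was 0.80 with the longest transcript.

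Among the synapsins, which tether vesicles to each other, Syn1 was 3.54 to 6.67 times above Syn3 and 5.50 to 7.93 times above Syn2. Syn3 was 1.02 to 1.55 times above Syn2. With the longest transcript the median ratio of Syn1 to Syn3 was 2.32 instead of 5.91, and that of Syn1 to Syn2 3.85 instead of 6.95. The order of the synaptotagmins did not follow their part in fast release: Syt11 and Syt4, which lack a complete calcium-binding site in a C2 domain and are not fast calcium sensors, were the most abundant per kilobase, at 14547 and 3343 normalised counts. Syt5 stood at 2415 and overlapped with Syt4, while Syt1, the fast calcium sensor of forebrain synapses, stood at 244 and Syt2, the fast sensor of hindbrain and neuromuscular synapses, at 38.4. Rab3a, the main Rab3 GTPase of synaptic vesicles, was 8.40 to 24.0 times above Rab3c. Unc13a (Munc13-1), the main vesicle priming factor of cortical synapses, was 2.50 to 4.03 times above Unc13b (Munc13-2).

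The scaffolds of the active zone lay closer together. Ppfia2 (liprin-alpha-2) was the highest of the 8, at 1930.3 normalised counts per kilobase. Ppfia3 (866), Erc1 (818), Bsn (714) and Erc2 (657) followed, and each overlapped with the next in the libraries' ranges. Rims2 (424), Rims1 (251) and Pclo (213) were the lowest, again with overlapping neighbours. This order depended on the exon length used: per kilobase of the longest transcript Erc1 stood at 1519, Ppfia3 at 1398.5, Erc2 at 1025, Rims2 at 918 and Bsn at 714. ERC and RIM proteins organise the release site and bind calcium channels or Munc13, and bassoon (Bsn) and piccolo (Pclo) are the giant scaffolds that mark it from the time it is formed. Of the plasma membrane SNARE genes, Stx1a stood at 1291 and Snap25 at 844.5 without overlap. Snap91, which encodes the clathrin adaptor AP180 that retrieves vesicle membrane, stood at 1243.

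**Figure D1:**
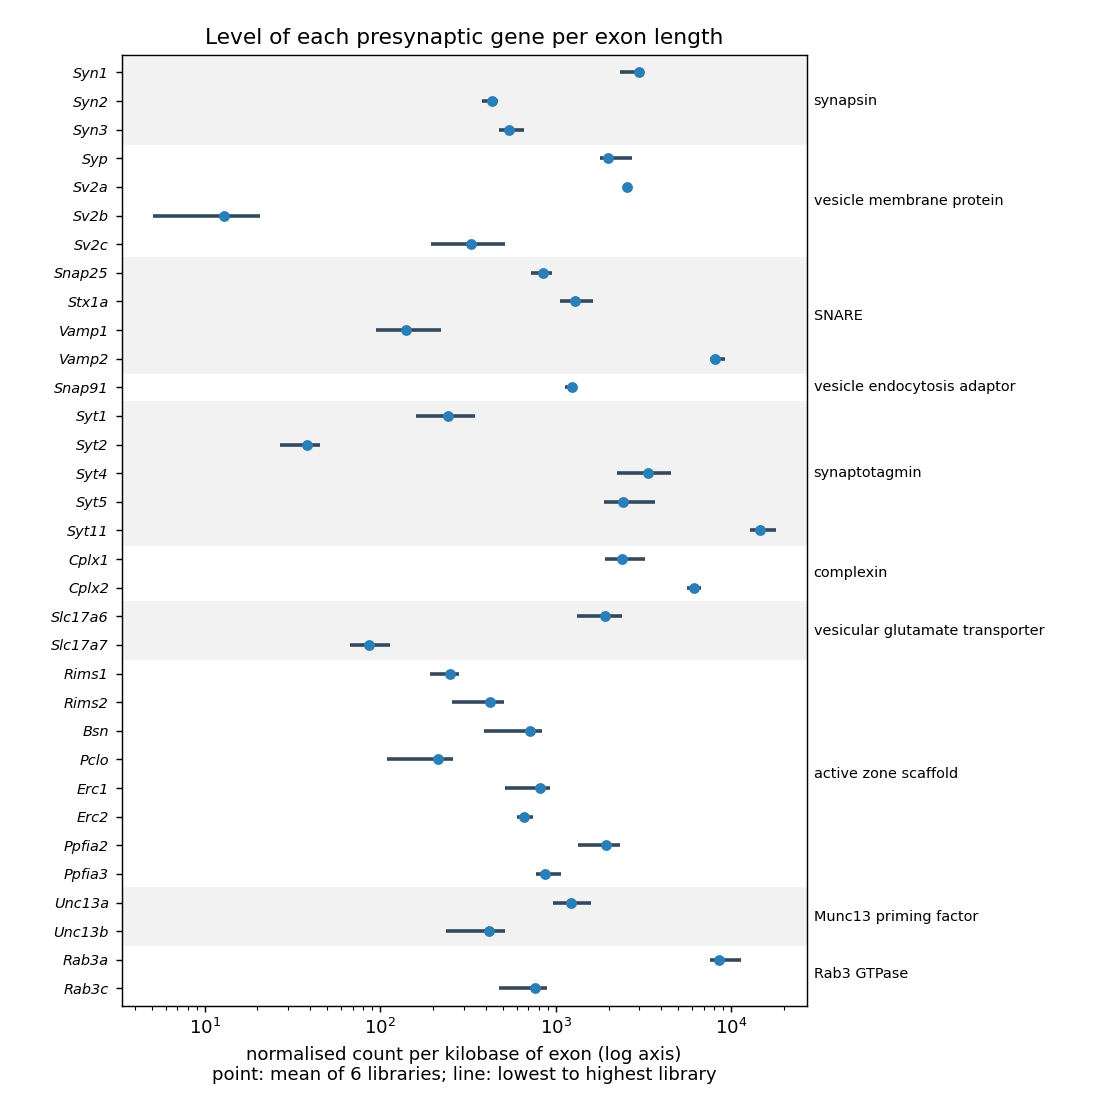
Level of each of the 33 genes per kilobase of exon (normalised counts, log axis), grouped by role; points are means of 6 libraries and lines run from the lowest to the highest library. Syt11 is the highest at 14547 and Sv2b the lowest at 12.9.

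Setting sponge against control libraries addresses whether these genes respond when miR-17-5p is sequestered. Over all 33 members, 15 had a higher fitted level in the sponge libraries and 18 a lower one, a share of 45.5% higher against 50.9% of all genes tested. Their median log2 fold change was −0.02, and that of all tested genes 0.01. No member passed the test: 0 were called higher and 0 lower at an adjusted p under 0.05 (limma, Benjamini-Hochberg over 22479 genes), where the background was 0.0% in each direction. The smallest adjusted p of a member was 0.925 over all 6 libraries and 0.645 without control library 1. At an unadjusted limma p under 0.05 there were 2 higher and 1 lower, 9.09% of the members against a background of 2.89% (1.58% higher and 1.31% lower). Without control library 1 there were 2 higher and 2 lower, 12.1% against 7.54% (4.0% higher and 3.54% lower), still with 0 members called where the background was 0.00893% higher and 0.0% lower. Then 12 members had a positive fold change, 36.4% against 51.9% of all genes. Over the members, the median half-width of the 95% interval was 0.46 on the log2 scale, and 0.24 without control library 1.

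In 4 of the 33 members the groups were fully separated, with sponge values on 1 side of all controls: 2 on the higher side and 2 on the lower. That is 12.1%, near the 11.2% of all tested genes (6.17% higher and 5.04% lower), and is therefore no result about these genes. Without control library 1 it was 5 members (2 higher, 3 lower), 15.2% against 24.6% (13.4% higher, 11.2% lower). In the authors' deposited table, which lists 10812 genes with a mean above 1002 normalised counts, 30 of the members appear. No member passed there, with a smallest adjusted p of 0.9954 in the authors' deposited table, where 1 gene of all (0.00925%) did.

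**Figure D2:**
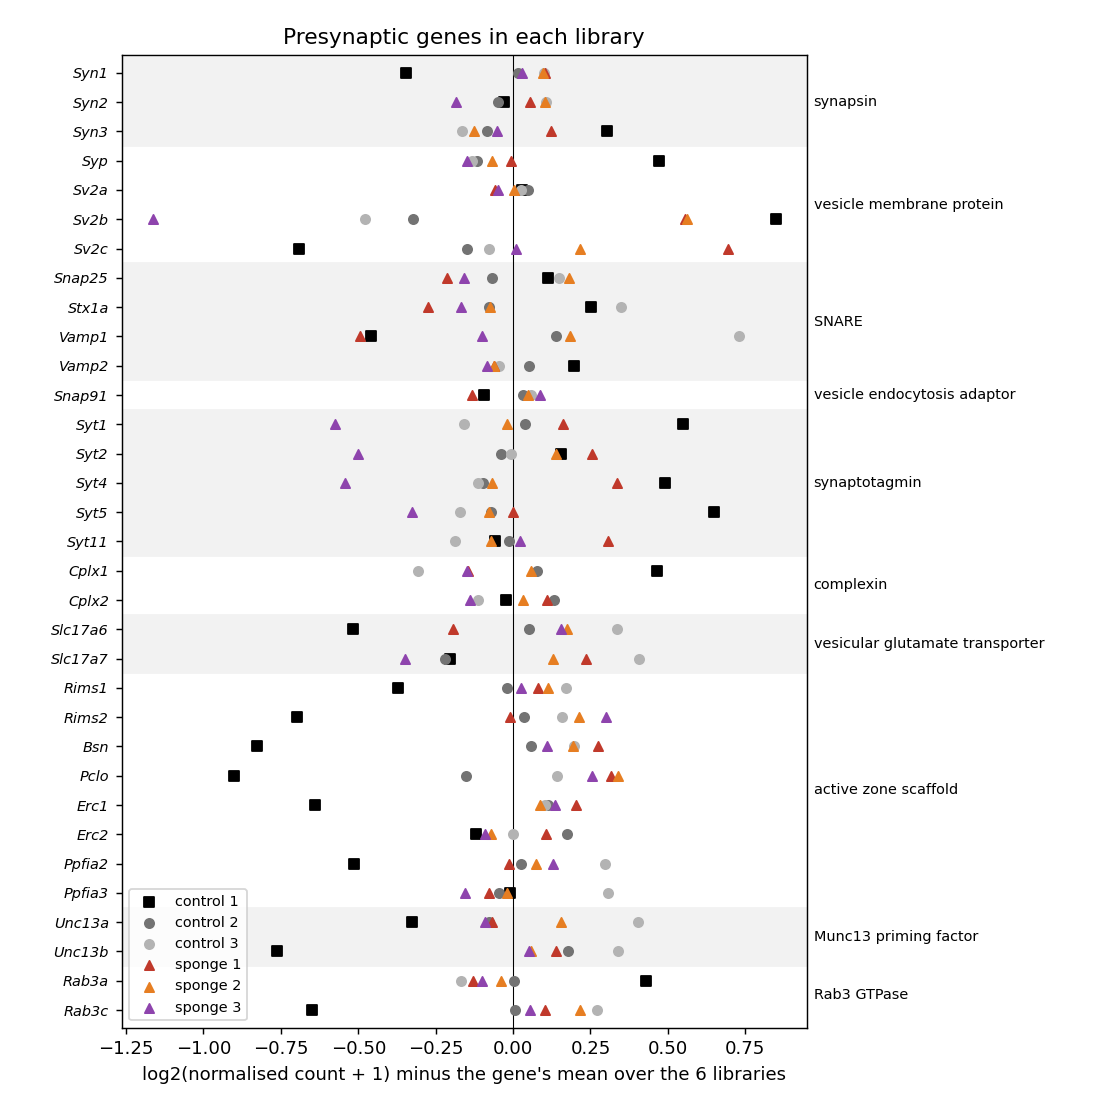
Each gene's log2(normalised count + 1) in each library minus its mean over the 6 libraries, grouped by role, with control libraries as squares and circles and sponge libraries as triangles. Control library 1 (black squares) is the lowest library for 13 genes and the highest for 9.

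Sv2c had the largest fitted fold change. It encodes a vesicle glycoprotein best known from the basal ganglia, and lies on chromosome 13, 95954594 to 96132577 (ENSMUSG00000051111). It measured 1902, 2769 and 2911 normalised counts in control libraries 1 to 3 and 4973, 3572 and 3094 in sponge libraries 1 to 3. The groups did not overlap, but control library 3 and sponge library 3 lay close together. On the log2 scale the difference was 0.61, with an SE of 0.23 (n = 3 and 3; limma adjusted p = 0.925, unadjusted p = 0.0297). It lay between 0.42 and 0.76 when any 1 library was left out. The authors' deposited table gives Sv2c 0.6183 with a p-value of 0.0131 before adjustment. The summed oligodendrocyte lineage markers were also higher in each sponge library than in each control, although Sox10 and Mbp, 2 of the 6, overlapped. The summed astrocyte markers overlapped between the groups. Among them Aqp4 and Slc1a3 were higher in each sponge library than in each control, and the other astrocyte markers overlapped. The part of either cell type in the Sv2c value was not tested. The other vesicle membrane genes stood at −0.15 (Syp), −0.07 (Sv2a) and −0.03 (Sv2b) on the log2 scale.

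Sv2a was the steadiest member. It measured 12036, 12206 and 12026 normalised counts in the controls and 11333, 11844 and 11427 in the sponge libraries, so its highest library exceeded its lowest by a ratio of only 1.08. The groups did not overlap, with the sponge on the lower side, by a log2 difference of −0.07 with an SE of 0.10 (limma adjusted p = 0.928). Sv2b was the least steady, with a ratio of 4.10 between its highest and lowest library and values of 42.4 to 174 normalised counts.

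Pclo had the second largest fold change. Piccolo is a giant scaffold of the active zone, encoded on chromosome 5, 14514918 to 14863459 (ENSMUSG00000061601). It measured 2455, 4124 and 5064 normalised counts in the controls and 5707, 5805 and 5477 in the sponge libraries. All sponge values lay above all control values, and the controls were spread over a wider range than the sponge libraries. The log2 difference was 0.61 with an SE of 0.25 (limma adjusted p = 0.925, unadjusted p = 0.0409), and 0.31 without control library 1 (adjusted p = 0.645, unadjusted p = 0.0113). Bsn, which encodes the related scaffold bassoon, measured 6221, 11489 and 12652 in the controls and 13349, 12634 and 11908 in the sponge libraries. Its groups overlapped: control library 1 was far below the rest, and control library 3 lay among the sponge libraries. Its log2 fold change of 0.38 ± 0.25 (limma adjusted p = 0.925) was 0.07 without control library 1.

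The values of the other scaffolds also shifted when control library 1 was left out. Of the 8 active zone scaffold genes, 6 had a positive fold change (median 0.22), and 4 did without control library 1 (median 0.02). Rims2 stood at 0.34 and 0.07 without that library, Erc1 at 0.28 and 0.04, Rims1 at 0.15 and 0.00. Ppfia2, the most abundant of them, measured 14546, 21135 and 25508 normalised counts in the controls and 20559, 21829 and 22701 in the sponge libraries. The sponge values fell within the range of the controls, and the log2 fold change was 0.13, or −0.10 without control library 1. Erc2 (−0.04) and Ppfia3 (−0.17) were on the lower side with all libraries.

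The priming factor Unc13a measured 12141, 14417 and 20137 normalised counts in the controls and 14519, 16947 and 14278 in the sponge libraries. The sponge values again fell within the control range, at a log2 fold change of 0.00 (−0.16 without control library 1). Its relative Unc13b stood at 0.16, and at −0.18 without control library 1.

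All 4 SNARE genes had a lower fitted level in the sponge libraries (median log2 fold change −0.20), and none was called. Stx1a, which encodes the plasma membrane SNARE syntaxin-1A (chromosome 5, 135023482 to 135051100, ENSMUSG00000007207), measured 4045, 3219 and 4328 normalised counts in the controls and 2809, 3231 and 3023 in the sponge libraries. Sponge library 2 lay just above control library 2, so the groups overlapped. The log2 difference was −0.35 with an SE of 0.15 (limma adjusted p = 0.925, unadjusted p = 0.0498) and −0.31 without control library 1. In the authors' deposited table Stx1a has −0.3551 with a p-value of 0.0536 before adjustment.

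Vamp2 measured 35096, 31709 and 29654 normalised counts in the controls and 29337, 29344 and 28887 in the sponge libraries. The sponge libraries were nearly identical and all below the controls, by little in the case of control library 3. The log2 fold change was −0.14 ± 0.11 (limma adjusted p = 0.925), and −0.07 without control library 1. Its paralog Vamp1 measured 991, 1499.7 and 2264 in the controls and 968, 1549 and 1272 in the sponge libraries. Its controls differed more among themselves than the groups did, and the log2 fold change of −0.27 was −0.57 without control library 1 (limma adjusted p = 0.654) and 0.02 without control library 3. Snap25, the partner of syntaxin on the plasma membrane, stood at −0.13.

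**Figure D3:**
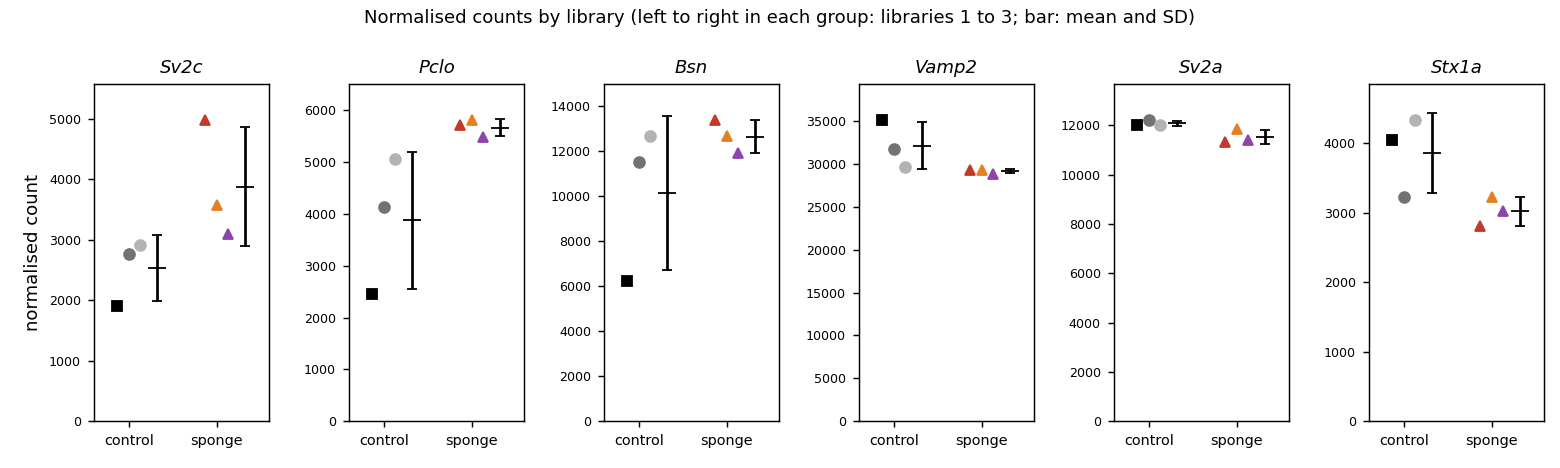
Normalised counts of 6 genes in the 3 control libraries (square, circles) and the 3 sponge libraries (triangles), with mean and SD beside each group; each axis starts at 0. Sponge values lie above all controls for Sv2c and Pclo and below all controls for Vamp2 and Sv2a, while Bsn and Stx1a overlap.

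Of the 5 synaptotagmins, 4 had a lower fitted level in the sponge libraries, and none was called. Syt11 was the exception, with 72345, 74684 and 66168 normalised counts in the controls and 93070.2, 71639 and 76385 in the sponge libraries. Sponge library 1 was far above the others, and sponge library 2 lay within the controls (log2 difference 0.17 with an SE of 0.14; limma adjusted p = 0.925). Syt1 stood at −0.29, Syt5 at −0.27, Syt4 at −0.19 and Syt2 at −0.07. Without control library 1 these were −0.08, −0.01, 0.01 and −0.01. Control library 1 was the highest library for Syt1, Syt4 and Syt5, and sponge library 3 was the lowest library for Syt1, Syt2, Syt4 and Syt5.

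The synapsin gene Syn1 measured 7716, 9912 and 10509 normalised counts in the controls and 10535, 10468 and 9992 in the sponge libraries. Apart from control library 1, the groups were interleaved (log2 fold change 0.15, and 0.02 without that library). Syn2 and Syn3 stood at −0.02 and −0.04. The complexin gene Cplx2, whose product clamps and promotes fusion of the SNARE complex, measured 29838, 33268 and 28038 in the controls and 32699, 31030.2 and 27561 in the sponge libraries, whose range overlapped that of the controls almost fully (0.00). Cplx1 stood at −0.16, and at 0.04 without control library 1.

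The transporter gene Slc17a6 measured 7118, 10562 and 12848 normalised counts in the controls and 8901, 11491 and 11347 in the sponge libraries. The sponge values lay inside the control range (log2 fold change 0.09, and −0.15 without control library 1). Slc17a7, low throughout at 361 to 611 normalised counts, stood at 0.01. Snap91 measured 10622, 11567 and 11799.7 in the controls and 10334, 11711 and 12027 in the sponge libraries, which overlapped fully (0.00). Rab3a measured 25333, 18843 and 16757 in the controls and 17211, 18328 and 17559.5 in the sponge libraries. Control library 1 alone was high, and the log2 fold change of −0.18 was −0.01 without it, whereas Rab3c stood at 0.25 and at −0.01 without that library.

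**Figure D4:**
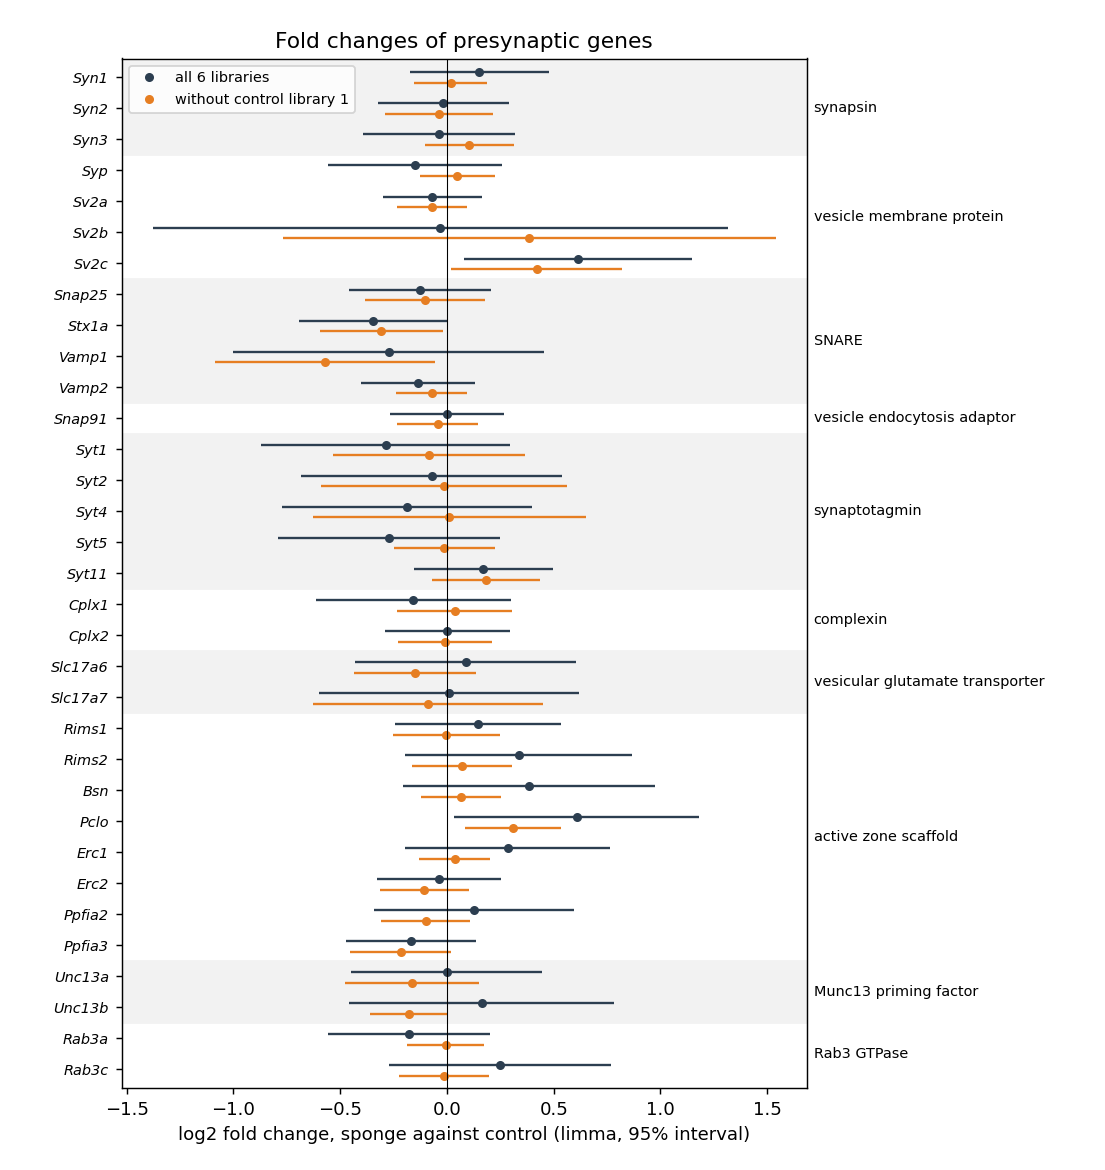
Log2 fold change of sponge against control for each gene with its 95% interval (limma), over all 6 libraries and without control library 1. Intervals over all libraries are wider for 32 of the 33 genes, Syt4 being the exception, and Pclo moves from 0.61 to 0.31, Bsn from 0.38 to 0.07 and Vamp1 from −0.27 to −0.57.

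With control library 1 included, longer members tended to have higher fold changes. Across the 33 genes, Spearman's rho between log2 fold change and exon length was 0.56 (Pearson's r 0.60), and 0.02 (Pearson's r 0.11) without control library 1. Over 22428 tested genes with a known exon length the same rho was 0.15 (Pearson's r 0.03). Without that library it was −0.01 (Pearson's r 0.07) over 22354 genes, so r did not fall there. Over 15198 tested genes with an annotated 3′ UTR rho was 0.36 (Pearson's r 0.23). Without control library 1 it was −0.13 (Pearson's r −0.04) over 15130 genes. These values describe genes of the same 6 libraries, which are not independent replicates. The long genes Unc13b (22746 exonic bases), Pclo (22457), Erc1 (16271) and Bsn (15938) had positive fold changes over all libraries. The short genes Cplx1 (2189), Rab3a (2226), Syt5 (2380) and Stx1a (2666) had negative ones. Other members went against this order: Syn3 (12282) and Vamp1 (10167) were negative, and Syn1 (3299) was positive. Of the 16 members longer than the median member, 9 had a positive fold change, and of the 17 others 6 did.

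The same order was seen in control library 1 itself. Its deviation from the mean of the 6 libraries was lower for longer members (rho −0.65), whereas in the other libraries rho lay between 0.11 and 0.48. The mean includes control library 1. This was not particular to the members: for control library 1 rho was −0.53 over 15198 tested genes with an annotated 3′ UTR. Over 22428 tested genes with a known exon length it was −0.19. Of the 16 members longer than the median member, control library 1 was the lowest library in 10 and the highest in 3, and of the 17 others it was the lowest in 3 and the highest in 6. Without it, 13 of the 33 members had a fold change of the opposite sign. Sv2c (0.42), Pclo (0.31), Stx1a (−0.31) and Vamp1 (−0.57) then had an unadjusted limma p under 0.05. The 3 that had it with all libraries, Sv2c, Pclo and Stx1a, were among them. With each library's trend on exon length removed, rho across the members was 0.17, Pclo stood at 0.34, Sv2c at 0.50, Bsn at 0.18 and Stx1a at −0.29, and no member was called (limma).

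**Figure D5:**
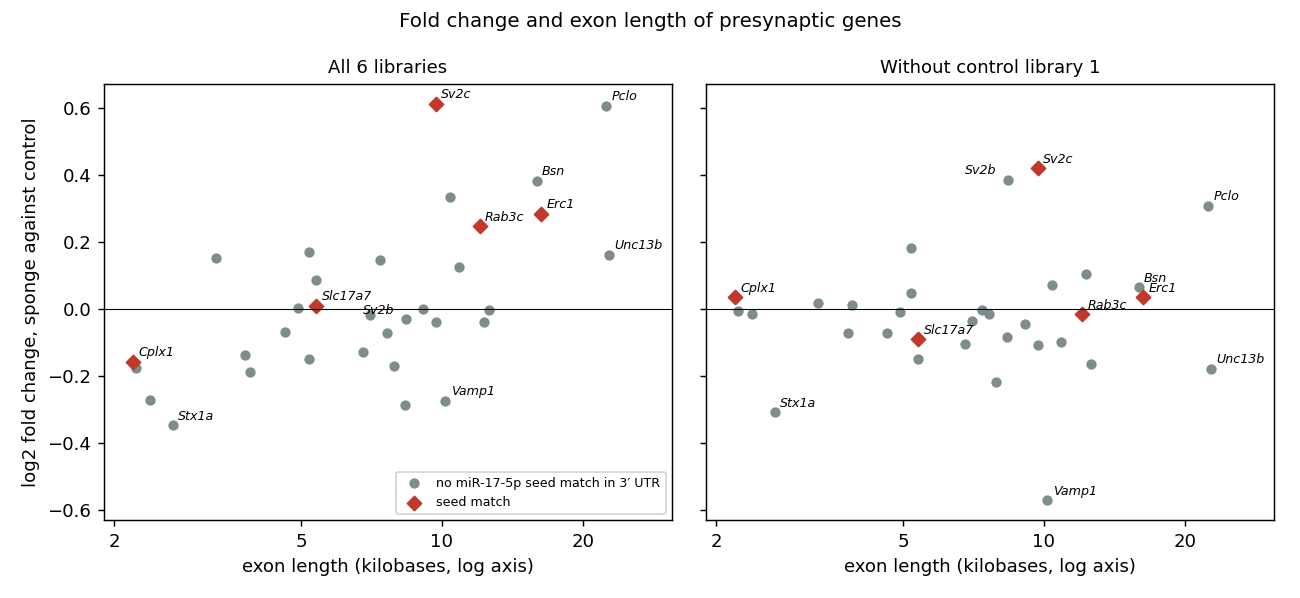
Log2 fold change of sponge against control for each of the 33 genes against its exon length (log axis), over all 6 libraries and without control library 1; diamonds carry a miR-17-5p seed match in the 3′ UTR. Spearman's correlation is 0.56 over all libraries and 0.02 without control library 1.

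The 5 genes with a seed match were not all on 1 side. Over all 6 libraries 4 of them were higher in the sponge libraries, with a median log2 fold change of 0.25 against −0.03 for the 28 members without a match. Without control library 1, 3 were higher, and the medians were 0.04 and −0.02. Sv2c was at 0.42 then, Erc1 and Cplx1 at 0.04, Rab3c, which has 2 matches, at −0.01, and Slc17a7, which has an 8-base match, at −0.09. Erc1 measured 8384, 14122 and 14029 normalised counts in the controls and 15057, 13882 and 14369 in the sponge libraries. Control libraries 2 and 3 lay within the range of the sponge libraries.

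No gene passed the test among other presynaptic genes either. Of 74 genes in 4 further lists, 71 were tested: 33 had a positive fold change, the median was −0.01, and 0 were called (limma; background 0.0%). An unadjusted limma p under 0.05 was found for 2 of the 71 (2.82% against 2.89% of all genes), and the groups did not overlap for 5 (7.04% against 11.2%). Of 23 other exocytosis genes (median −0.02), Cadps2, a factor for dense-core vesicle release, stood at 0.40 and the SNARE gene Snap29 at 0.18, with the smallest p-values of the list. Of 17 other vesicle protein genes (median −0.09), the endosomal Rab5a stood at 0.24. Slc18a3, the vesicular acetylcholine transporter gene, was near the detection limit, with 12.6 to 62.0 normalised counts in the controls and 0 to 8.84 in the sponge libraries. Of 14 other active zone genes (median 0.03), the scaffold Cask stood at 0.23, with all sponge values above all controls, and the Munc18-binding adaptor Apba1 at 0.25. Of 17 endocytosis genes (median 0.03), Bin1 (amphiphysin-2) stood at −0.31, with 10197, 8601 and 10565 normalised counts in the controls and 8019.7, 8547 and 7133 in the sponge libraries, all below the controls (limma adjusted p = 0.925), and Stxbp6 (amisyn) at 0.28.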

How the data were processed

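Stranded mRNA libraries were prepared by ligation, per the labels' protocols. Per the submitters' processing notes, tools included STAR 2.7.6a and DESeq2 1.30.1, with builds mm10 and GRCm38. Neither the counting tool, its annotation nor its use of strand is stated by any source at hand. In 5 members over 10% of exon bases overlap a gene on the opposite strand (Ppfia2 22.3%, Syp 16.8%, Syt4 14.5%, Syn3 14.1%, Erc1 11.8%), so reads of such pairs may be mixed. The deposited values are a linear signal: each library's gene counts after division by its own size factor, per the file headers and the authors' table title. The deposited comparison gives the authors' log2 fold changes and p-values, rounded by them. Depth is the sum of whole multiples of each column's smallest value, taken as 1 read.

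Genes with a mean of at least 10 (22479 of 35510) entered limma 3.58.1 (R 4.3.3) as log2(value + 1) (trend, robust empirical Bayes, two-sided, Benjamini-Hochberg, threshold 0.05). The log2(value + 1) scale understates changes of low genes. The fit was tested on simulated data. Planned count models were not run, since in 2 columns the smallest value lay too near 1 to establish that it is worth 1 read. Exon lengths and 3′ UTRs come from GENCODE M21 (GRCm38; 35389 identifiers found), microRNA sequences from RefSeq (GRCm38.p6). All 33 members are named; values in every library are given for members with an unadjusted p under 0.05 or groups that do not overlap and for the highest member per kilobase of each role, and Bsn, Vamp1 and Erc1 were added after their values were seen. From each further list the 2 genes of smallest p are named; the values of Bin1 in every library were added after they were seen. Members and lists were chosen with earlier results of these data known. Of the marker genes listed for cortical neurons, 1 is not reported here and was left out of their sum.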

Additional observations from a re-analysis of the deposited data

How the results depend on the processing

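No member was called under any alternative run. Outside the fits that left out a library, 313 of 330 member values kept their direction and their side of the threshold over 10 settings. These were pseudocounts, filters, scalings, length correction, array quality weights, no robust step and replicate block. The filters, the robust step and the replicate block cannot change a fold change here, so the direction of those values was fixed in advance. The 17 reversals, all small, came from the scalings, length correction and array quality weights, and their cause was not tested. With TMM scaling Snap91 stood at −0.016, Cplx2 at −0.015 and Slc17a7 at −0.0069 (log2). With cyclic loess they stood at −0.016, −0.027 and −0.0087. With length correction Snap91 stood at −0.10, Cplx2 at −0.0033, Slc17a7 at −0.0082, Unc13b at −0.11 and Ppfia2 at −0.011. With array quality weights, whose estimation gave a convergence warning, Syn3 stood at 0.031, Syp at 0.0052, Cplx2 at −0.11, Sv2b at 0.16, Unc13a at 0.017 and Unc13b at −0.10, and 3 genes were called higher and 1 lower over the whole table. The members' median log2 fold change lay between −0.10 and 0.0012 in these settings and between −0.05 and 0.04 with a library left out. The 8-base match alone left 2 members with a match. Leaving out 1 library at a time gave 0 to 2 genes called higher over the whole table (2 without control library 1) and 0 lower, 2 to 6 members fully separated on the higher side (6 without control library 3, 18.2% against 13.3% of all tested genes, and 4 without sponge library 2, 12.1% against 10.2%) and 2 to 5 on the lower (5 without sponge library 2, 15.2% against 8.97%, and 4, or 12.1%, without control library 2 or 3, against 9.85% and 11.8%), and a length rho of 0.020 to 0.65. It reversed 18 members, whose log2 fold changes ranged from −0.073 to 0.071 for Syn2, −0.13 to 0.11 for Syn3, −0.25 to 0.049 for Syp, −0.044 to 0.068 for Snap91, −0.22 to 0.16 for Syt2, −0.40 to 0.039 for Syt4, −0.57 to 0.025 for Vamp1, −0.35 to 0.036 for Cplx1, −0.054 to 0.072 for Cplx2, −0.15 to 0.28 for Slc17a6, −0.10 to 0.22 for Slc17a7, −0.32 to 0.54 for Sv2b, −0.0030 to 0.27 for Rims1, −0.11 to 0.040 for Erc2, −0.16 to 0.20 for Unc13a, −0.18 to 0.37 for Unc13b, −0.10 to 0.31 for Ppfia2 and −0.015 to 0.45 for Rab3c. Libraries of the same number did not deviate together (correlations 0.0096, 0.0054 and −0.05), and those of unlike number lay near 0 as well (−0.054 to 0.071). With so few libraries, these values cannot decide whether the numbers pair them. With the replicate block 0 genes were called and no call changed. The edgeR and DESeq2 alternatives were not run. The 3 libraries a group, with 1 control apart from the rest, limit the precision of each value.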

Other observations

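A ratio of 2 members within a library does not change when the whole library is scaled by 1 factor. It can change under cyclic loess or length correction, which do not shift all genes alike. The pairs below differ in exon length, as with Rims1 (7362 bases) and Pclo (22457) or Sv2a (4636) and Sv2c (9700). The pairs given here were chosen after their values were seen, among 28 computed, and were not tested. In 4 of the 28 the ratio separated the groups, all of them with Sv2c or Pclo as the denominator. Both of these genes already separated the groups by themselves, so the ratios are not separate support. The share over pairs of other genes was not computed, and of single genes tested 11.2% separated the groups. The level of Bsn per kilobase was 3.57, 3.93 and 3.52 times that of Pclo in control libraries 1 to 3 and 3.30, 3.07 and 3.06 times in sponge libraries 1 to 3. The level of Sv2a was 13.2, 9.22 and 8.64 times that of Sv2c in the controls and 4.77, 6.94 and 7.73 times in the sponge libraries. The level of Rims1 was 1.76, 1.34 and 1.25 times that of Pclo in the controls and 1.04 times in each sponge library. The members together took 0.278%, 0.296% and 0.303% of all normalised counts in the controls and 0.306%, 0.304% and 0.289% in the sponge libraries.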
